A study of Mus musculus with 10 samples.

Results

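The genes described here make, recycle or use glutathione and thioredoxin, remove superoxide and peroxides, or oxidise aldehydes. They were chosen by symbol from the full RNA-seq table: glutathione peroxidases, glutathione S-transferases, peroxiredoxins, thioredoxin reductases, superoxide dismutases, aldehyde dehydrogenases, and 14 further genes such as those of glutathione synthesis, thioredoxin, catalase, heme oxygenase and NRF2. The symbols were found in 78 of the table's 27968 rows, and 67 of the 78 had a valid test in the authors' deposited table. The other 11 were not tested, and no value among them was above 0.647 FPKM in either condition.

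The tumours grew under the skin of immune-compromised mice from C57BL/6 mouse embryonic fibroblasts (MEFs) driven by RAS and a dominant-negative p53 (DNP53). The name of the authors' deposited table gives the RAS as G12V, and the tumour size at the start was 500 mm3 for all samples. Tagged cyclin D1 tumours (TAG, 3 tumours labelled with the numbers 12, 14 and 14) and untagged ones (WT, 2 tumours labelled 18 and 25) all received HA-siRNA in the Aonys formulation, by the rectal route, 5 times a day. The numbers are taken as cell lines, and the groups share none, so tag and line cannot be told apart. No group without HA-siRNA or with an empty formulation was analysed here. Each library was run on 2 lanes, which gives the 10 samples. The authors' deposited table holds 1 abundance value for each of 2 conditions, C1 and C2, as FPKM, which scales fragments by transcript length and by library size. The sources used here do not say which of them is the tagged group, so every direction below is that of C2 against C1. There is no value per tumour, hence no SD and no n, and the depth is unknown. A gene was called when the authors' Cuffdiff q was under 0.05. The values come from whole tumours, in which fewer cells of a type and less RNA per cell cannot be told apart.

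Glutathione is a small thiol peptide made by glutamate-cysteine ligase and glutathione synthetase and kept reduced by glutathione reductase. Glutathione peroxidases spend it to reduce peroxides, and glutathione S-transferases attach it to reactive compounds, while thioredoxin, its reductases and the peroxiredoxins form a parallel thiol system. The transcription factor NRF2 (gene Nfe2l2), held in check by Keap1, switches on many of these genes through antioxidant response elements in DNA. Aldehyde dehydrogenases clear reactive aldehydes, and some of them make retinoic acid. In RAS-transformed cells these systems are known for buffering the oxidants that oncogenic RAS signalling produces.

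Upstream sequence is shown for 3 called genes, Gpx2, Gpx3 and Mgst1, and for Prdx1 and Gclm, whose levels lay close together in the 2 conditions. Each run is the 250 bases before a RefSeq start on GRCm38.p6, in the gene's own direction, with matches to the antioxidant response element core TGACNNNGC (either strand) in capitals. In the RefSeq promoter table used here, 65 of the 80 symbols in the rows were matched, with 83 starts in all. Promoters of Hmox1 and Sod3 were not analysed here.
Gpx2 (chr12:76795555-76795804, minus strand): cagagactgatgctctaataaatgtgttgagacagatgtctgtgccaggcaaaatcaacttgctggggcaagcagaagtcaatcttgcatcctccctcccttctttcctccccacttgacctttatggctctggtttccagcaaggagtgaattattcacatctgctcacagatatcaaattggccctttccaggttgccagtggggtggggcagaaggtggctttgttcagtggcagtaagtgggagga
Gpx3 (chr11:54902604-54902853, plus strand): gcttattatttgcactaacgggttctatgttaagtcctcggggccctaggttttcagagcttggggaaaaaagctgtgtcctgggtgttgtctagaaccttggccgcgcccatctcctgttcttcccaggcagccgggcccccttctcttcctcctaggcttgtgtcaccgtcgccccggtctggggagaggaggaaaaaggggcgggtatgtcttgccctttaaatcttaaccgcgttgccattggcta
Mgst1 (chr6:138140277-138140526, plus strand): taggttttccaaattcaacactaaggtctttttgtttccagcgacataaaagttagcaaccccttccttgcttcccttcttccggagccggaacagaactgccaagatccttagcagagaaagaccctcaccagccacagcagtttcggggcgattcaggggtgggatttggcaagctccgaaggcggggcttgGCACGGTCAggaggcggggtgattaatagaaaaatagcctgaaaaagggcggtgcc
Prdx1 (chr4:116685349-116685598, plus strand): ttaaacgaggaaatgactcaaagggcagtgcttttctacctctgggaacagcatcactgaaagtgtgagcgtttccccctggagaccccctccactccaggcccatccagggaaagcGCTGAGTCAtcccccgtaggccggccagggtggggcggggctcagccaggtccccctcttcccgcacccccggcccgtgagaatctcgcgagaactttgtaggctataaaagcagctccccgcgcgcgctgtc
Gclm (chr3:122245307-122245556, plus strand): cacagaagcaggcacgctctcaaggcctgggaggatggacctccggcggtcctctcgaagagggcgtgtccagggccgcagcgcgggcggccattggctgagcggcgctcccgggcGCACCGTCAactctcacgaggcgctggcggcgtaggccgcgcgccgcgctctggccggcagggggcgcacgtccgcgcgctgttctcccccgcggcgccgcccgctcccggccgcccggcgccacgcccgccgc

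The core TGACNNNGC was present in the promoters of 11 of these 65 genes (16.9%), against 11.5% of the 27025 genes in the RefSeq table. Among called genes matched to that table, Mgst1 had a match on the opposite strand, 56 to 48 bases before 1 of its 2 starts, and Gpx2, Gpx3, Gstt1 and Gstt3 had none in this window. Prdx1 had a match at 133 to 125 bases before its start, which overlaps a match to the AP-1 motif TGANTCA at 131 to 125. Gclm had its match on the opposite strand at 134 to 126 bases. TGANTCA was found in 7 of the 65 genes (10.8%, against 7.82% of all genes), and ACGTG, the core that hypoxia-inducible factors recognise, in 16 (24.6%, against 18.5%). A gene was counted here if any of its starts had a match. Counted by start, TGACNNNGC was in 13.3% of the 83, against 10.2% of all 32851 starts. By the same count TGANTCA was in 8.43%, against 6.75%, and ACGTG in 19.3%, against 16.6%. A match is a string of letters in this window and was not tested as a binding site.

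Most of these genes stood at similar levels in both conditions, and a few differed widely in either direction. Of the 67 tested rows 6 were called in the authors' deposited table (8.96%), against 7.12% of all 16681 tested rows. Of the 6, Gpx2, the joined row Gstt1,Gstt3, Mgst1 and Hmox1 were higher in C2 (5.97%, against 4.2% of all rows), and Gpx3 and Sod3 were lower (2.99%, against 2.92%). These shares are near the background. The median log2 ratio was 0.13, beside 0.05 over all tested rows, and 43 of the 67 rows (64.2%) lay within 0.5 of 0, as did 62.6% of all tested rows. An unadjusted p under 0.05 in the authors' deposited table was found for 13 of the 67 (19.4%, against 17.1%). Summed over the 78 rows, the level was 5940 FPKM in C2 and 6039 FPKM in C1.

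**Figure D1:**
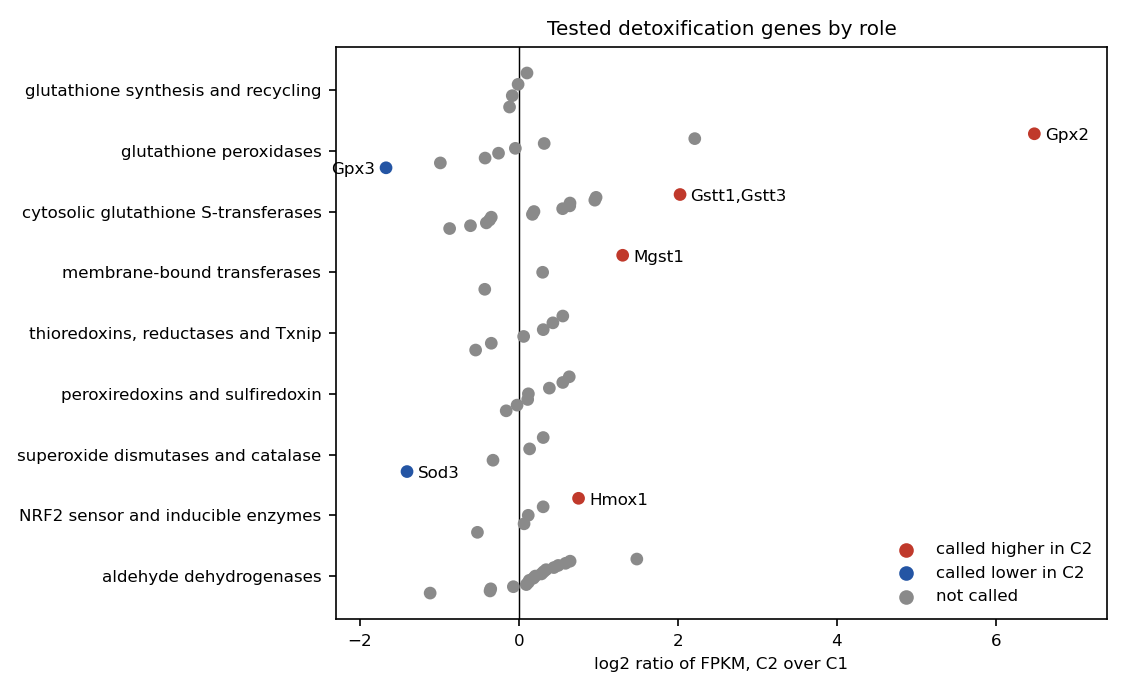
Log2 ratio of FPKM (C2 over C1) of the 67 tested rows, 1 point a row, grouped by role and spread vertically only to separate the points; red points were called higher in C2, blue points lower and grey points not called, by the authors' deposited q. Gpx2 lies far to the right at 6.49, Gpx3 and Sod3 lie at -1.67 and -1.41, and the 4 glutathione synthesis and recycling genes cluster at 0.

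The highest levels were those of Prdx5, Gsto1, Prdx1, Gpx1 and Txn1, and the same 5 genes led in both conditions. Prdx5, a peroxiredoxin of mitochondria, peroxisomes and cytosol, had 898 FPKM in C2 and 612 FPKM in C1 by the authors' deposited table, which made it the first of the 78 rows in C2 and the second in C1. Gsto1, an omega-class enzyme with thiol transferase activity, had 599 FPKM in C2 and 913 FPKM in C1 by the same authors' deposited table, the second and the first. Neither difference was called (q = 0.362 and q = 0.322 in the authors' deposited table).

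None (0) of the 4 glutathione synthesis and recycling genes was called by Cuffdiff, against 7.12% of all tested rows. Nor had any of the 4 an unadjusted p under 0.05 (0). Gclc, the catalytic subunit of glutamate-cysteine ligase, had 19.4 FPKM in C2 and 18.1 FPKM in C1 by the authors' deposited table. Gclm, its modifier subunit, had 21.4 FPKM in C2 and 22.7 FPKM in C1 there. Gss, glutathione synthetase, stood at 32.1 FPKM in C2 and 34.8 FPKM in C1, and Gsr, glutathione reductase, at 62.7 and 63.0 FPKM in C2 and C1 of the authors' deposited table. The 4 log2 ratios ran from -0.12 (Gss) to 0.10 (Gclc), and the quartiles of all tested rows were -0.31 and 0.38. Cuffdiff's q for the 4 lay between 0.933 and 0.995 in the authors' deposited table.

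The glutathione peroxidases held the largest rise and the largest fall among these genes, by log2 ratio. Gpx2 (XLOC_005462, chromosome 12, 77893321 to 77896541, MGSCv37), a selenium-containing peroxidase known mainly from gut and other epithelia, had 70.7 FPKM in C2 and 0.789 FPKM in C1 by the authors' deposited table. That is an 89.6-fold rise (log2 ratio 6.49, q = 0.00167 in the authors' deposited table), or a log2 ratio of 5.33 with a pseudocount of 1 FPKM. By level, Gpx2 ranked 19 of the 78 rows in C2 and 63 in C1. Gpx3 (XLOC_003091, chromosome 11, 54716355 to 54723884), the secreted plasma peroxidase, stood at 89.4 FPKM in C2 and 284 FPKM in C1, a log2 ratio of -1.67 (q = 0.00167 in the authors' deposited table). Gpx3 in C2 was thus at 0.314 of its level in C1 by the authors' deposited table.

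Gpx1, the widespread cytosolic enzyme, remained the most abundant peroxidase, with 457 FPKM in C2 and 545 FPKM in C1 by the authors' deposited table (q = 0.716). It made up 49.8% of the summed level of the 10 Gpx rows in C2 and 46.4% in C1. Gpx3 made up 9.75% in C2 and 24.2% in C1, and Gpx2 7.71% in C2 and 0.0671% in C1. The sum itself was 917 FPKM in C2 and 1176 FPKM in C1. Gpx4, which reduces lipid peroxides in membranes, had 23.5 FPKM in C2 and 18.9 FPKM in C1 and was not called (q = 0.781 in the authors' deposited table).

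Gpx7 and Gpx8, peroxidases of the endoplasmic reticulum that use cysteine in place of selenocysteine, were not called. Gpx7 had 14.6 FPKM in C2 and 19.5 FPKM in C1 by the authors' deposited table. Gpx8 occupies 2 rows with the same coordinates and no strand given. The larger had 220 FPKM in C2 and 227 FPKM in C1 (log2 ratio -0.04), and the smaller 40.4 FPKM in C2 and 80.2 FPKM in C1 (log2 ratio -0.99, q = 0.643) in the authors' deposited table. How reads were shared between the 2 rows is not given, so neither Gpx8 value is certain. The pseudogene row Gpx2-ps1, which overlaps Pgm2l1 and can share reads with Gpx2, had 0.917 FPKM in C2 and 0.198 FPKM in C1 (q = 0.897 in the authors' deposited table). Gpx5 and Gpx6, known from the epididymis and the olfactory epithelium, were listed at 0 in both conditions.

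**Figure D2:**
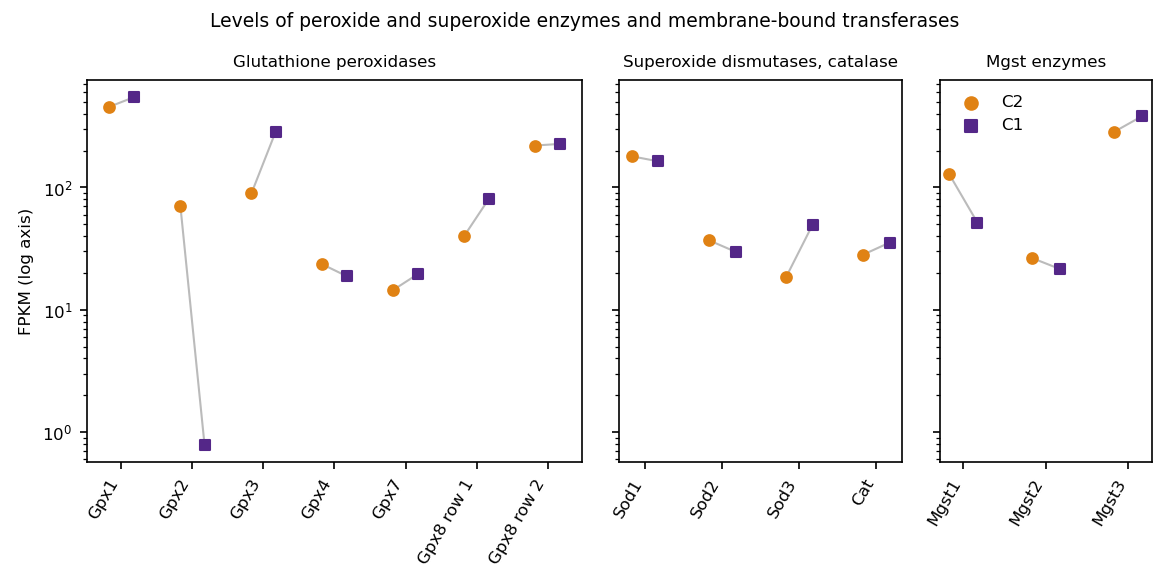
FPKM on a log axis of the tested glutathione peroxidases (without the pseudogene), superoxide dismutases, catalase and membrane-bound transferases (Mgst), circles for C2 and squares for C1, 1 deposited value each and no error available. Gpx2 had 70.7 FPKM in C2 and 0.789 FPKM in C1, Gpx3 and Sod3 were lower in C2, and Mgst1 was higher.

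Superoxide dismutases turn superoxide into hydrogen peroxide, and catalase breaks hydrogen peroxide down. Of the 4 genes 1 was called (25%, against 7.12% of all tested rows), Sod3, the dismutase secreted into the extracellular matrix. Sod3 (XLOC_018484, chromosome 5, 52755042 to 52760977, MGSCv37) had 18.7 FPKM in C2 and 49.5 FPKM in C1 by the authors' deposited table, or -1.41 as a log2 ratio (q = 0.00167). Sod1, the cytosolic enzyme, had 180 FPKM in C2 and 163 FPKM in C1 and was not called (q = 0.918 in the authors' deposited table). Sod2, the mitochondrial enzyme, had 36.9 FPKM in C2 and 29.8 FPKM in C1 (q = 0.814 in the authors' deposited table). Sod3 made up 7.95% of the summed dismutase level in C2 and 20.4% in C1. Catalase (Cat), a peroxisomal enzyme, stood at 28.3 FPKM in C2 and 35.4 FPKM in C1 and was not called (q = 0.639 in the authors' deposited table).

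Markers of fibroblasts and of other cell types were compared between the same conditions. Over all tested rows 4.2% were called higher in C2 and 2.92% lower. Of 11 fibroblast markers 6 were called lower in C2 and 0 higher, with a median log2 ratio of -1.04 and a summed level of 3696 FPKM in C2 and 7294 FPKM in C1. Of 12 epithelial markers 8 were called higher and 0 lower, with 9 of 12 higher in value and a median of 2.55. Krt5 (log2 ratio -2.93), the joined row Krt14,Krt42 (-1.23) and Krt18 (-0.004) had lower values in C2 and were not called. The summed level of the 12 was 1198 FPKM in C2 and 742 FPKM in C1. Of 8 skeletal muscle rows 7 were called lower, with summed levels of 102 FPKM in C2 and 1222 FPKM in C1. No fibroblast, epithelial or muscle marker was at 0 in either condition (0 of these lists). Of 5 tested adipocyte markers 1 was called lower, Lpl, and the summed level of all 7 listed was 226 FPKM in C2 and 341 FPKM in C1. Cd14 was the 1 of 7 macrophage markers called, in the higher direction, with a median log2 ratio of -0.11 and sums of 378 FPKM in C2 and 369 FPKM in C1. Of 3 tested erythroid rows 0 were called, with sums of 144 FPKM in C2 and 97.1 FPKM in C1. Of 5 tested neutrophil markers 1 was called higher (Ltf), while their median log2 ratio was -0.52 and the summed level 50.4 FPKM in C2 and 87.3 FPKM in C1. Of 7 endothelial markers 1 was called higher (Cdh5) and 1 lower (Tek), with a median of -0.61, 1 of 7 higher in value, and sums of 87.3 FPKM in C2 and 94.3 FPKM in C1. Of 4 tested lymphocyte markers 3 were called lower, with sums of 1.09 FPKM in C2 and 8.11 FPKM in C1. The part of these cells in the values of Gpx2, Gpx3, Sod3, Mgst1 and the other genes here was not tested.

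Of 13 tested rows of cytosolic glutathione S-transferases 1 was called (7.69%, against 7.12% of all tested rows). The joined row Gstt1,Gstt3 (XLOC_002366, chromosome 10, 75236866 to 75261329, MGSCv37), theta-class enzymes that act on small halogenated compounds, had 19.5 FPKM in C2 and 4.79 FPKM in C1 by the authors' deposited table. The rise was 4.08-fold (log2 ratio 2.03, q = 0.00297 in the authors' deposited table), and Gstt1 and Gstt3 cannot be told apart in it. The neighbouring Gstt2 had 6.24 FPKM in C2 and 3.18 FPKM in C1 and was not called (log2 ratio 0.97, q = 0.498 in the authors' deposited table). Gstt4, which lies between them, was not tested.

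Both omega-class genes, whose rows lie 727 bases apart on chromosome 19, had lower values in C2, and neither was called. Gsto2, which also reduces dehydroascorbate, had 30.9 FPKM in C2 and 56.4 FPKM in C1 by the authors' deposited table (log2 ratio -0.87, p = 0.0187, q = 0.156). Gsto1 had a log2 ratio of -0.61. Gsto1 alone gave 95.1% of the omega-class level in C2 and 94.2% in C1, and the sum over the cytosolic transferases, 820 FPKM in C2 and 1109 FPKM in C1, is mainly Gsto1. Without both omega-class genes the sum was 190 FPKM in C2 and 139 FPKM in C1.

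The pi-class row Gstp1,Gstp2, detoxifying enzymes common in tumours, had 60.5 FPKM in C2 and 41.3 FPKM in C1 and was not called (q = 0.427 in the authors' deposited table). Gstz1, the zeta-class enzyme of tyrosine breakdown, had 26.6 FPKM in C2 and 17.1 FPKM in C1 (q = 0.406 in the authors' deposited table), in a row that overlaps Pomt2. The mu-class genes lie in a cluster on chromosome 3 and are close copies whose reads the counting may have split. Among their 4 tested rows the log2 ratios ran from -0.35 (Gstm2) to 0.64 (Gstm7). Of these rows 0 were called, against 7.12% of all tested rows. Gstm5 was highest at 32.9 FPKM in C2 and 28.8 FPKM in C1, and the joined row Gstm1,Gstm4 had 27.9 FPKM in C2 and 24.8 FPKM in C1 by the authors' deposited table. Gsta4, an alpha-class enzyme that acts on lipid aldehydes, had 4.96 FPKM in C2 and 6.59 FPKM in C1 there, and Gstk1, of mitochondria and peroxisomes, had 3.12 FPKM in C2 and 4.03 FPKM in C1. Gsta3 reached 1.09 FPKM in C2 and 0.564 FPKM in C1 by the authors' deposited table. Gsta1 and Gsta2 were listed at 0 in C1 and below 0.1 FPKM in C2, and Gstm3 was listed at 0 in both.

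Of the 3 membrane-bound transferases, enzymes of the endoplasmic reticulum and mitochondrial membranes, 1 was called (33.3%, against 7.12% of all tested rows). Mgst1 (XLOC_020511, chromosome 6, 138089057 to 138105276, MGSCv37), which conjugates glutathione and reduces lipid peroxides, had 128 FPKM in C2 and 51.6 FPKM in C1 by the authors' deposited table. That was a 2.47-fold rise (log2 ratio 1.31, q = 0.00646 in the authors' deposited table), which was not called with the Benjamini-Yekutieli adjustment. Mgst3 was the most abundant of the 3, with 285 FPKM in C2 and 384 FPKM in C1 (log2 ratio -0.43, q = 0.443 in the authors' deposited table). Mgst2, which can make leukotriene C4, had 26.5 FPKM in C2 and 21.6 FPKM in C1 (q = 0.857 in the authors' deposited table). The sum of the 3 was 440 FPKM in C2 and 457 FPKM in C1, with Mgst1 higher and Mgst3 lower in value.

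**Figure D3:**
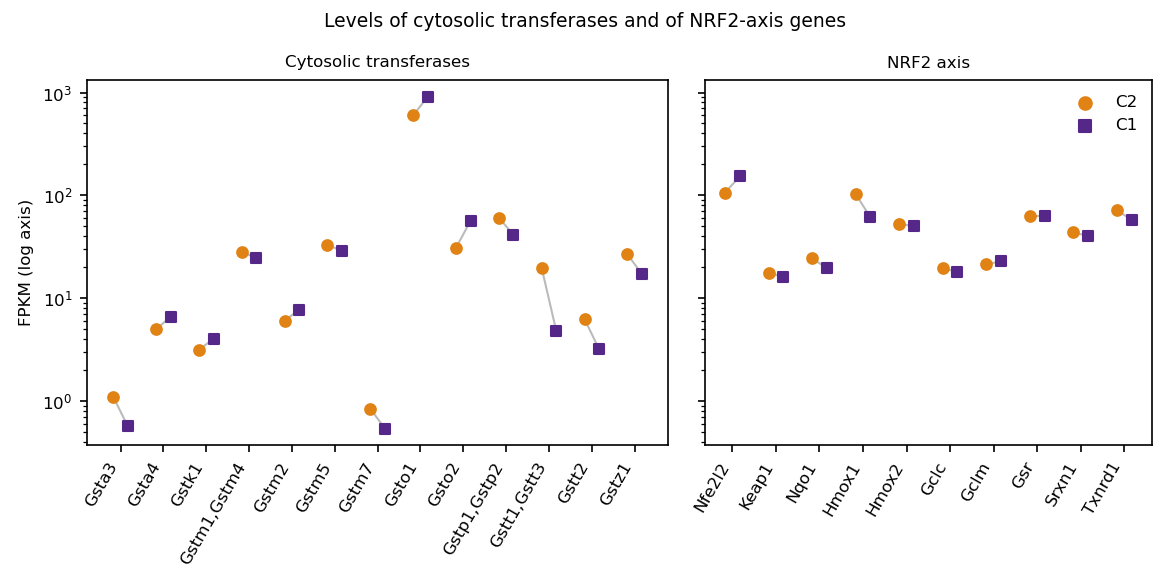
FPKM on a log axis of the tested cytosolic glutathione S-transferases (left) and of 10 genes of the NRF2 axis (right), circles for C2 and squares for C1, 1 deposited value each and no error available. The row Gstt1,Gstt3 had 19.5 FPKM in C2 and 4.79 FPKM in C1, and in the right panel Hmox1 was the called gene while Nfe2l2 had the lower value in C2.

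None (0) of the 6 thioredoxin system genes was called by Cuffdiff, against 7.12% of all tested rows. Txn2 and Txnip had an unadjusted p under 0.05. Txn1, the cytosolic thioredoxin, had 427 FPKM in C2 and 409 FPKM in C1 by the authors' deposited table (log2 ratio 0.06). Txn2, its mitochondrial counterpart, had 144 FPKM in C2 and 97.9 FPKM in C1 (log2 ratio 0.55, p = 0.02395, q = 0.187 in the authors' deposited table). Txnip, which binds and inhibits thioredoxin and restrains glucose uptake, had 33.6 FPKM in C2 and 49.0 FPKM in C1 (log2 ratio -0.54, p = 0.04245, q = 0.264 in the authors' deposited table). The selenoprotein reductases Txnrd1 (cytosol), Txnrd2 (mitochondria) and Txnrd3 (testis) had log2 ratios of 0.31, 0.43 and -0.35. Txnrd1 led them, with 71.4 FPKM in C2 and 57.7 FPKM in C1 by the authors' deposited table.

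None (0) of the 7 tested peroxiredoxin and sulfiredoxin rows was called, against 7.12% of all tested rows. Prdx6 was the 1 of the 7 with an unadjusted p under 0.05. Peroxiredoxins reduce peroxides at an active cysteine, and sulfiredoxin (Srxn1) repairs them when that cysteine is overoxidised. Their summed level with Srxn1 was 2074 FPKM in C2 and 1722 FPKM in C1, the highest of the 9 role groups in both conditions, and 5 of the 7 had higher values in C2 (71.4%, against 54.4% of all tested rows). Prdx6, which also acts on phospholipids, had 118 FPKM in C2 and 76.1 FPKM in C1 (log2 ratio 0.63, p = 0.03605, q = 0.241 in the authors' deposited table). Prdx5 had a log2 ratio of 0.55 and the mitochondrial Prdx3 one of 0.38. Prdx1 and Prdx2, both cytosolic, had 510 and 346 FPKM in C2, against 518 and 318 FPKM in C1, by the authors' deposited table. Prdx4, of the endoplasmic reticulum, had a log2 ratio of -0.16 and Srxn1 one of 0.11. Prdx6b was listed at 0 in both conditions.

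In the NRF2 axis the heme-degrading enzyme Hmox1 was called and the NRF2 gene itself was not. Hmox1 (XLOC_024080, chromosome 8, 77617516 to 77624492, MGSCv37) had 103 FPKM in C2 and 61.1 FPKM in C1 by the authors' deposited table, a rise of 1.68-fold (log2 ratio 0.75). Its q of 0.0481 in the authors' deposited table lies just under the threshold. Hmox1 was not called at q under 0.01, with a 2-fold minimum or with the Benjamini-Yekutieli adjustment. Hmox2, the constitutive form, had 52.6 FPKM in C2 and 50.2 FPKM in C1 (q = 0.974 in the authors' deposited table). Nfe2l2 had 106 FPKM in C2 and 152 FPKM in C1 (log2 ratio -0.52, p = 0.0399, q = 0.255 in the authors' deposited table). Keap1 had 17.5 FPKM in C2 and 16.1 FPKM in C1 there. Nqo1, a quinone reductase often read as an NRF2 target, had 24.3 FPKM in C2 and 19.6 FPKM in C1 (log2 ratio 0.31, q = 0.739 in the authors' deposited table). Of the NRF2 targets shown with it, Gclc, Gclm, Gsr, Srxn1 and Txnrd1, log2 ratios ran from -0.08 to 0.31. Hmox1 had the highest log2 ratio of these, and its difference from the others was not tested. The Hmox2 row overlaps Cdip1.

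None (0) of the 17 tested aldehyde dehydrogenases was called by Cuffdiff, against 7.12% of all tested rows. The value was higher in C2 for 13 of the 17 (76.5%), against 54.4% of all tested rows. Aldh1a1 and Aldh1a7 had an unadjusted p under 0.05. Their median log2 ratio was 0.21 and the summed level of the 20 rows was 300 FPKM in C2 and 234 FPKM in C1. Aldh2, the mitochondrial enzyme that clears acetaldehyde and lipid aldehydes, was the most abundant, with 116 FPKM in C2 and 82.0 FPKM in C1 (log2 ratio 0.50, p = 0.05925, q = 0.322 in the authors' deposited table). Aldh18a1, which makes the proline precursor, followed with 32.1 FPKM in C2 and 23.7 FPKM in C1 (q = 0.417 in the authors' deposited table). Aldh9a1 and Aldh3a2, which act on aminobutyraldehyde and on fatty aldehydes, had log2 ratios of 0.21 and 0.34.

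Some Aldh1a enzymes make retinoic acid. Of the 4 Aldh1a rows 0 were called (against 7.12% of all tested rows), with q between 0.185 and 0.842 in the authors' deposited table. Aldh1a3 was the most abundant, with 28.9 FPKM in C2 and 18.5 FPKM in C1 (log2 ratio 0.65, q = 0.364 in the authors' deposited table), and gave 84.1% of the summed Aldh1a level in C2 and 70.1% in C1. Aldh1a1 had 1.95 FPKM in C2 and 4.23 FPKM in C1 (log2 ratio -1.12, p = 0.02355, q = 0.185 in the authors' deposited table). Aldh1a7, a near copy of Aldh1a1 whose row lies 49488 bases away on chromosome 19, had 0.909 FPKM in C2 and 0.325 FPKM in C1 (log2 ratio 1.48, p = 0.0471, q = 0.282 in the authors' deposited table). Adding 1 FPKM to each value gave Aldh1a7 a log2 ratio of 0.53 and Aldh1a1 one of -0.82. These neighbours had opposite signs and neither was called, and reads may have been split between them. Aldh1a2 had 2.63 FPKM in C2 and 3.35 FPKM in C1 by the authors' deposited table.

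**Figure D4:**
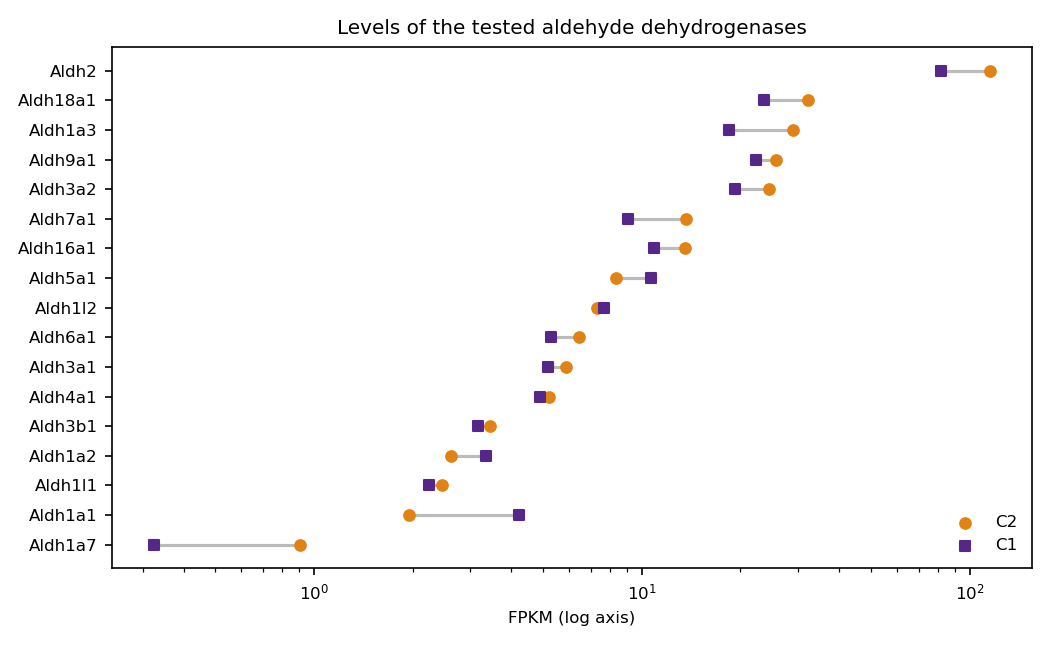
FPKM on a log axis of the 17 tested aldehyde dehydrogenases, circles for C2 and squares for C1 joined by a line, ordered by the value in C2, 1 deposited value each and no error available. Aldh2 is highest in both conditions at 116 FPKM in C2 and 82.0 FPKM in C1, and Aldh1a1 and Aldh1a7 at the low end have the widest gaps, in opposite directions.

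Of the other aldehyde dehydrogenases, Aldh7a1, of lysine breakdown, had the next highest ratio (log2 ratio 0.59, q = 0.578 in the authors' deposited table), in a row that overlaps Phax. Aldh5a1, which oxidises succinate semialdehyde, had 8.33 FPKM in C2 and 10.7 FPKM in C1 by the authors' deposited table. The folate enzymes Aldh1l1 and Aldh1l2 had log2 ratios of 0.13 and -0.07. Aldh3a1, Aldh3b1, Aldh4a1, Aldh6a1 and Aldh16a1 ran from 0.09 to 0.31. Aldh1b1, Aldh8a1 and the joined row 1700055N04Rik,Aldh3b2 were not tested.

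Genes that supply or draw on the same systems were counted from lists of textbook roles. The list for NADPH supply includes Aldh1l1, Aldh1l2 and enzymes of the same pathways that do not make NADPH themselves. Of its 18 tested genes 15 stood higher in C2 (83.3%, against 54.4% of all tested rows). By q, 2 were called higher (11.1%, against 4.2%) and 0 lower, and their median log2 ratio was 0.44, beside 0.05 over all tested rows. Taldo1, transaldolase of the pentose phosphate pathway, had 137 FPKM in C2 and 76.6 FPKM in C1 (log2 ratio 0.84, q = 0.0244 in the authors' deposited table). Mthfd1l, of mitochondrial folate metabolism, had a log2 ratio of 0.91 (q = 0.0339 in the authors' deposited table). Neither Taldo1 nor Mthfd1l makes NADPH itself. The NADPH-making G6pdx (log2 ratio 0.32, q = 0.693) and Pgd (0.40, q = 0.45) were not called in the authors' deposited table. Idh1 (-0.31) and Nnt (-0.49) had lower values in C2 and were not called. Of 23 tested genes of cystine import and glutathione turnover, whose median log2 ratio was -0.04, 3 were called (13.0%, against 7.12% of all tested rows). Called higher were Ggt1 (log2 ratio 2.81, but 0.914 FPKM in C2 and 0.130 FPKM in C1 by the authors' deposited table) and the aminopeptidase Anpep (0.97), and called lower was the dipeptidase Dpep1 (-2.08). The cystine importer Slc7a11 was not called (log2 ratio 0.59, q = 0.302 in the authors' deposited table).

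Among 23 tested further NRF2-inducible genes and regulators 0 were called higher and 1 lower (4.35%, against 2.92% of all tested rows), with a median log2 ratio of 0.08. The 1 was Adh7, an alcohol dehydrogenase that also oxidises retinol, at 15.9 FPKM in C2 and 43.3 FPKM in C1 (log2 ratio -1.45, q = 0.00167 in the authors' deposited table). Of 16 tested retinoid pathway genes 3 were called higher (18.8%, against 4.2% of all tested rows) and 2 lower (12.5%, against 2.92%), with a median log2 ratio of 0.20. Higher were the retinol uptake receptor Stra6 (log2 ratio 1.18) and the dehydrogenases Dhrs9 (1.07) and Rdh11 (1.01). Lower were Cyp26b1, which breaks retinoic acid down (-2.13), and Crabp2, which carries it to the nucleus (-1.50). Crabp2 had 233 FPKM in C2 and 659 FPKM in C1 by the authors' deposited table.

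Of 17 tested genes listed for selenoprotein synthesis and other selenium-related proteins 0 were called higher and 2 lower (11.8%, against 2.92% of all tested rows), with a median log2 ratio of 0.06. The 2 were the deiodinases Dio2 (-2.12) and Dio3 (-1.97), which process thyroid hormone, and both were low, at 0.575 and 1.16 FPKM in C2, against 2.50 and 4.57 FPKM in C1, by the authors' deposited table. Sephs2, which makes the selenium donor for selenocysteine, had a log2 ratio of 0.13. Of 14 tested superoxide and hydrogen peroxide sources 0 were called higher and 1 lower (7.14%, against 2.92% of all tested rows), the aldehyde oxidase Aox3 (-1.94), with a median of -0.26.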

How the data were processed

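The study measured mRNA in mouse tumours. Per the labels' protocols, dissection followed the last dose by 30 minutes and stranded mRNA libraries were sequenced as single reads of 100 bases. Bowtie and TopHat aligned the reads to MGSCv37, and Cufflinks gave abundances and their comparison, per the series' design text. Versions in the submitters' processing notes are 2.1.1 for Cufflinks, 2.0.8b for TopHat2 and 1.8.2 for CASAVA. The deposited table has Cuffdiff's columns and states no unit, so its values were read as FPKM. The p-values and q-values are as the authors deposited them. The sources used here do not say whether lanes or tumours served as its replicates, so q may or may not hold the variation between tumours.

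Log2 ratios are of C2 over C1 with no pseudocount, and no fold is given against a value of 0. For tested rows of these genes they differed from the deposited log2 fold by at most 8.74e-06. The smallest Cuffdiff p in the table, 5e-05, is shared by 500 rows, Gpx2, Gpx3 and Sod3 among them. Their equal q of 0.00167 is thus the lowest in the table and does not rank them. Of the 78 rows 4 are joined rows and 16 overlap another row. The genes and lists were chosen with earlier results of these data known. Every gene found by symbol could be named; called genes, those at least 2-fold apart with at least 1 FPKM, and the 2 most abundant of each role are given in full, as are up to 4 called genes of each other list. Promoters were matched by symbol to RefSeq on GRCm38.p6, another build than the table's. Adjustment code was tested on simulated data. Alternatives were a q of 0.01, a 2-fold minimum, minimums of 1 and 5 FPKM, other adjustments, pseudocounts of 0.1 and 1, re-centring, the deposited fold and single-symbol rows. Software was pandas 2.3.3, numpy 2.4.6 and matplotlib 3.10.9 under Python 3.11.15.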

Additional observations from a re-analysis of the deposited data

How the results depend on the processing

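No paired analysis was possible because each condition has a single deposited value, and leaving out a replicate could not be run either. The number of these genes called stayed between 4 and 6 under the 7 alternatives, while the share called over all rows moved. At q under 0.01 it was 5 of 67 rows, against 4.21% of all rows. With the 2-fold minimum it was 5 of 8 rows, against 36.5%. With the Benjamini-Yekutieli adjustment it was 4 of 67, against 3.57%. Under the remaining alternatives the share of all rows lay between 7.04% and 7.35%. With the Benjamini-Yekutieli adjustment, which is stricter by construction, the number called higher in C2 was 2, against 4 (Mgst1 and Hmox1 lost their call). At q under 0.01, and also with the 2-fold minimum, Hmox1 (log2 ratio 0.75) lost its call, and the other 5 rows kept theirs. Gpx2, Gpx3 and Sod3 were called under all 7. The joined row Gstt1,Gstt3 was called under all but the single-symbol rows, which leave it out. The median log2 ratio ranged from 0.08 to 0.13, the lowest after centring on tested rows with at least 1 FPKM in a condition. No log2 ratio changed sign under either pseudocount, centring or the deposited fold (0 rows). The depth is unknown, so it cannot be said how it limits the low values.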
